A study of Mus musculus with 6 samples.

Results

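The 7 genes described here, Tinagl1, Arhgef10l, Efhd2, Tnfrsf1b, Zfp984, Mad2l2 and Fbxo44, lie within 10 Mb of Pax7 on mouse chromosome 4 and differed in level between Psat1 cKO and control myoblasts. They are 7 of the 25220 genes in the deposited table, and all 7 passed the filter on low values. They were chosen from results of this same comparison, so their differences are given as a description, with no test. The label fits the positions: of 375 genes in the table that lie within 10 Mb of Pax7, 200 were tested and 10 were called, namely these 7, Pax7 itself, Col16a1 and the pseudogene Rps15a-ps4.

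The RNA came from primary cultures of mouse hindlimb myoblasts and was poly(A)-selected. There were 3 Psat1 cKO libraries, with Cre at 1 Pax7 allele (Pax7 CRE+/-) and floxed Psat1 (Psat1fl/fl), and 3 Ctrl libraries, with unaltered Pax7 alleles (Pax7 +/+) and the same floxed Psat1. Neither the strain and age of the mice nor any induction of the Cre is given in the labels. The labels do not say that replicates came from separate animals. Sex-linked expression, given below, differed within each group, so the libraries of a group did not all share 1 source of cells. Whether each library came from a separate animal is unknown, and the spread behind each p-value may be partly technical.

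Pax7 is the paired-box transcription factor of satellite cells, the stem cells of skeletal muscle, and a Cre placed in this gene is made where Pax7 is expressed. An allele introduced at a locus is inherited together with the DNA beside it until recombination parts them, so genes near Pax7 travel with the Cre allele more often than distant genes do. Here the Cre allele was present in every Psat1 cKO library and absent from every Ctrl library by genotype. For genes beside Pax7, the effects of the loss of Psat1, of Cre, of the altered Pax7 allele and of DNA inherited with it cannot be told apart.

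Levels are in RPKM, the authors' read density scaled for transcript length and library depth. Estimated depth was between 19500000 and 35200000 reads in the Psat1 cKO libraries, and between 33600000 and 42800000 in the Ctrl libraries. Of 12251 genes tested with limma, 280 (2.29%) were called at an adjusted p under 0.05, of which 220 (1.8%) were higher and 60 (0.49%) lower in Psat1 cKO. Psat1, for phosphoserine aminotransferase of serine synthesis, read 63.5, 74.7 and 71.8 RPKM in Psat1 cKO, against 91.8, 93.4 and 100.2 RPKM in Ctrl. Psat1 cKO thus had 73.6% of the Ctrl level in this per-gene value, which need not cover only the floxed part, and the call (limma, adjusted p = 0.0225) was lost in 5 of the 6 fits without 1 library, all except that without Psat1 cKO 1. Pax7 read 18.7, 15.9 and 17.5 RPKM in Psat1 cKO, against 26.3, 25.9 and 27.3 RPKM in Ctrl. Markers of myoblasts were abundant, with Myod1 between 572 and 636 RPKM in Psat1 cKO and between 634 and 780 RPKM in Ctrl. Of 8 tested markers of fibro-adipogenic progenitors, the stromal cells of muscle, 4 (Pdgfra, Cd34, Mfap5 and Smoc2) were higher in Psat1 cKO and 0 lower. Pdgfra, a receptor that defines these cells, read 1.63 to 2.87 RPKM in Psat1 cKO and 0.326 to 0.510 RPKM in Ctrl, and Cd34 read 13.2 to 21.6 RPKM in Psat1 cKO and 4.71 to 7.03 RPKM in Ctrl. The summed level of all 14 such markers was 83.3 to 90.6 RPKM in Psat1 cKO and 53.7 to 63.1 RPKM in Ctrl. Its largest part was Gsn, not called, at 31.9 to 44.7 RPKM in Psat1 cKO and 26.3 to 34.9 RPKM in Ctrl. Tcf4, also not called, added 13.6 to 16.2 RPKM in Psat1 cKO and 15.4 to 16.7 RPKM in Ctrl. Tcf4 is of doubtful use as a marker of these cells, though the counts and the sum include it. Of 6 tested markers of smooth muscle cells and pericytes, 2 were higher and 0 lower, with summed levels of 598 to 738 RPKM in Psat1 cKO and 573 to 696 RPKM in Ctrl. Most of that sum was Des, which is also on the myoblast list, and Acta2, neither called. Des read 309 to 360 RPKM in Psat1 cKO and 358 to 388 RPKM in Ctrl. Acta2 read 171 to 238 RPKM in Psat1 cKO and 148 to 272 RPKM in Ctrl. The untested Myh11, Cnn1 and Kcnj8 were at no more than 0.495, 0.437 and 0.0135 RPKM in any library. Of 8 tested myoblast markers, Pax7 and Myf5 were called, both lower, and the sums were 1483 to 1726 RPKM in Psat1 cKO and 1770 to 2100 RPKM in Ctrl. Pax7 itself holds the Cre allele in every Psat1 cKO library, so its lower level cannot be read as a measure of myoblast content. Of 4 endothelial and 3 immune markers tested, limma called 0, with 1 of each at an unadjusted p under 0.05. These were the endothelial Cdh5, higher (log2 fold change 0.80), and the immune Laptm5, lower (-0.44). Laptm5 itself lies 8.80 Mb before Pax7, and the other tested immune markers, Cd68 (0.27) and Lyz2 (0.97), had the opposite direction. The stromal markers Dpt and Pi16 were at 0 in all Ctrl libraries and at no more than 0.0299 and 0.0126 RPKM in Psat1 cKO. In bulk RNA, fewer cells of a type and less RNA per cell cannot be told apart, and the part of these cells in the differences below was not tested.

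Among the 7 genes, 5 were lower in Psat1 cKO and 2 were higher. The groups of all 7 did not overlap, which also held for 20.5% of all genes tested, and the choice of members favoured this. The 5 lower genes, Arhgef10l, Tnfrsf1b, Zfp984, Mad2l2 and Fbxo44, all lie after Pax7, at higher chromosome positions. The higher genes lie on both sides, with Efhd2 after Pax7 and Tinagl1 before it. Apart from Pax7 itself, the called genes in the interval that are not among the 7 are Col16a1 and Rps15a-ps4, both higher and before Pax7.

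**Figure D1:**
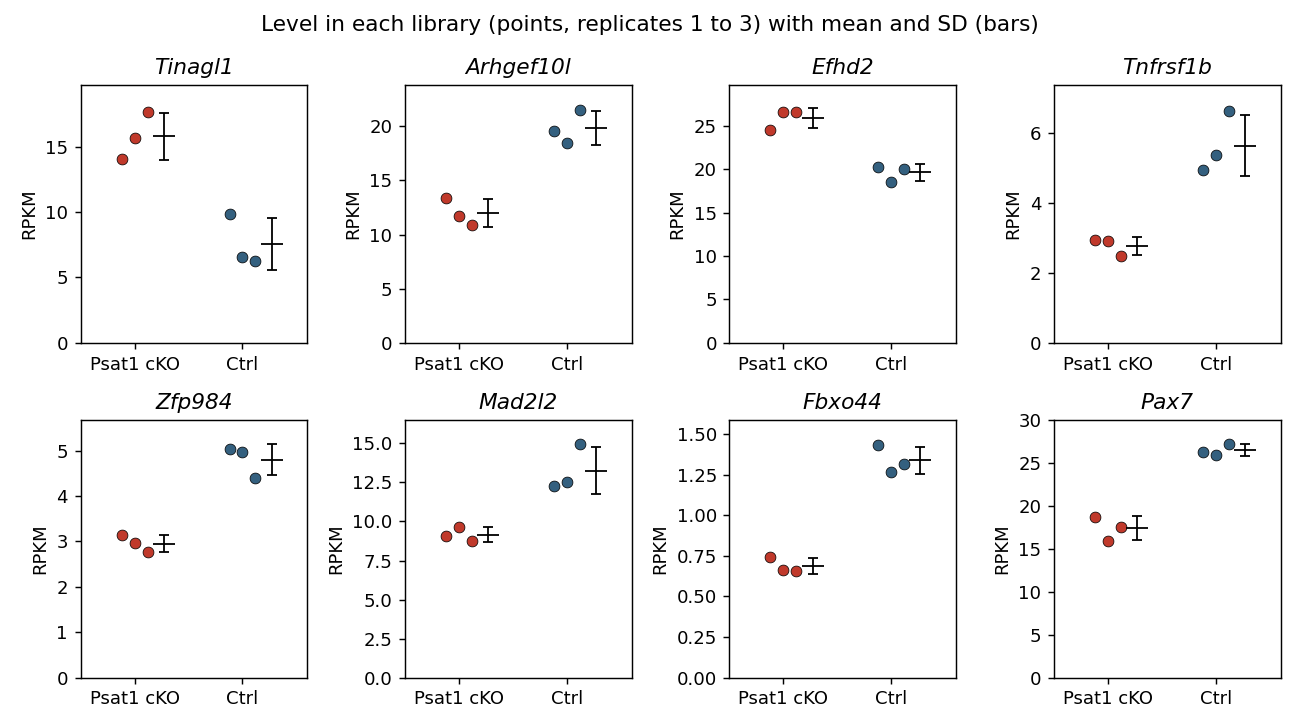
RPKM of each of the 7 genes and of Pax7 in 3 Psat1 cKO libraries (red) and 3 Ctrl libraries (blue), with mean and SD at the right of the points. In each panel every Psat1 cKO point lies on 1 side of every Ctrl point, above for Tinagl1 and Efhd2 and below for the others.

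Tnfrsf1b encodes the TNF receptor type 2, which binds tumour necrosis factor at the cell surface and signals through TRAF proteins to NF-kB (Entrez 21938, GRCm38 chromosome 4, 145212368 to 145246870, minus strand, 5.38 Mb after Pax7). It read 2.93, 2.90 and 2.47 RPKM in Psat1 cKO, against 4.94, 5.35 and 6.61 RPKM in Ctrl. The Psat1 cKO libraries were all below the Ctrl libraries, of which the third stood above the other 2. The means were 2.76 ± 0.258 RPKM in Psat1 cKO and 5.63 ± 0.872 RPKM in Ctrl (SD, n = 3 each), so that Psat1 cKO had 49.1% of the Ctrl level. On the log2 scale the difference was -0.90 (SE 0.11), the largest fall among the 7.

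Arhgef10l encodes a guanine nucleotide exchange factor, which switches on small GTPases, and is the member nearest to Pax7 (Entrez 72754, 140514485 to 140666007, minus strand, 0.681 Mb after Pax7). It read 13.4, 11.7 and 10.9 RPKM in Psat1 cKO, against 19.6, 18.4 and 21.5 RPKM in Ctrl. Every Psat1 cKO library was below every Ctrl library, and the means were 11.99 ± 1.26 RPKM in Psat1 cKO and 19.8 ± 1.55 RPKM in Ctrl (SD, n = 3 each), a log2 fold change of -0.71 (SE 0.09). Another exchange factor gene in the interval, Arhgef19, had the same direction and was not called: 9.10, 7.30 and 6.52 RPKM in Psat1 cKO, against 10.7, 10.2 and 12.8 RPKM in Ctrl.

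Mad2l2 encodes REV7, a small adaptor protein that joins the subunits of translesion DNA polymerase zeta and is part of the shieldin complex at broken DNA ends (Entrez 71890, 148130158 to 148145704, plus strand, 8.30 Mb after Pax7). It read 9.07, 9.66 and 8.74 RPKM in Psat1 cKO, against 12.3, 12.5 and 15.0 RPKM in Ctrl. Psat1 cKO libraries were close to each other, and the third Ctrl library stood above the other 2. The log2 fold change was -0.51 (SE 0.08), the smallest of the 5 falls, with 69.1% of the Ctrl level left. Its span in RefSeq shares 982 bases with that of Draxin, which read no more than 0.281 RPKM in any library. Among the other members, Tinagl1 shares 1801 bases with the long non-coding RNA gene Gm52490, and Arhgef10l 1461 bases with another, Gm42335. Neither of these RNA genes has an RPKM value, so their part in the reads was not examined.

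Fbxo44 encodes an F-box protein, the part of an SCF ubiquitin ligase that picks the substrate (Entrez 230903, 148152799 to 148160183, minus strand, 8.32 Mb after Pax7). It is the least abundant member, at 0.742, 0.661 and 0.659 RPKM in Psat1 cKO, against 1.43, 1.26 and 1.32 RPKM in Ctrl. At the estimated depths that is 12.8 to 26.1 reads per kilobase of transcript in Psat1 cKO and 48.1 to 56.4 in Ctrl. The Psat1 cKO mean, 0.687 ± 0.0474 RPKM, was 51.4% of the Ctrl mean, 1.34 ± 0.0850 RPKM (SD, n = 3 each). Its log2 fold change of -0.63 (SE 0.09) is on the log2(RPKM + 0.5) scale, which understates the change of a gene this low.

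Zfp984 encodes a zinc finger protein of a cluster of related genes on chromosome 4 (Entrez 100041677, 147753974 to 147812229, minus strand, 7.92 Mb after Pax7). It read 3.14, 2.95 and 2.76 RPKM in Psat1 cKO, against 5.03, 4.96 and 4.41 RPKM in Ctrl, with a log2 fold change of -0.62 (SE 0.08). Every Psat1 cKO library was below every Ctrl library. Its value is uncertain because of near-identical sequence: of the distinct 50-base stretches in its GENCODE M21 transcripts, 54.5% also occur in transcripts of other genes, 46.9% in Gm13212 alone. For the other 6 members that share was 0%.

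Efhd2 encodes swiprosin-1, a calcium-binding protein with EF hands that binds actin filaments (Entrez 27984, 141858142 to 141874920, minus strand, 2.02 Mb after Pax7). It read 24.5, 26.6 and 26.5 RPKM in Psat1 cKO, against 20.3, 18.5 and 20.03 RPKM in Ctrl. The groups were each narrow, with SDs of 1.18 RPKM in Psat1 cKO and 0.944 RPKM in Ctrl. The log2 fold change of 0.39 (SE 0.06) was the smallest of the 7 in size, and the Psat1 cKO mean was 132% of the Ctrl mean.

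Tinagl1 encodes a secreted matricellular glycoprotein related to tubulointerstitial nephritis antigen, found at basement membranes (Entrez 94242, 130165600 to 130175122, minus strand, 9.56 Mb before Pax7). It read 14.1, 15.6 and 17.6 RPKM in Psat1 cKO, against 9.81, 6.54 and 6.27 RPKM in Ctrl. The first Ctrl library stood above the other 2, and still 4.24 RPKM below the lowest Psat1 cKO library. The means were 15.8 ± 1.80 RPKM in Psat1 cKO and 7.54 ± 1.97 RPKM in Ctrl (SD, n = 3 each), and the log2 fold change of 1.04 (SE 0.16) was the largest in size among the 7. The summed stromal markers given above were also higher in Psat1 cKO, and their part in this difference was not tested.

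Promoter sequence is shown for 4 of the lower members that hold the E-box CAGCTG, the 6-base site that myogenic factors such as MyoD are known to bind, and for the lower member Fbxo44 and its uncalled neighbour Fbxo6, which lack it. Each is 250 bases before to 50 after a RefSeq start on GRCm38.p6, written 5′ to 3′ on the gene's strand (plus for Mad2l2, minus for the others), with CAGCTG in capitals; the site reads the same on both strands.
Arhgef10l, chr4:140665856-140666155: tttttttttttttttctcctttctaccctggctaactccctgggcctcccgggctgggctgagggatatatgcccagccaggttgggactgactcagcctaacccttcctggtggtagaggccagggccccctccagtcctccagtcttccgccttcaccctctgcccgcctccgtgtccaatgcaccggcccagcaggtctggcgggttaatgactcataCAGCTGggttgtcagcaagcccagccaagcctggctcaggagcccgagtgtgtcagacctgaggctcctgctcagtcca
Tnfrsf1b, chr4:145246821-145247120: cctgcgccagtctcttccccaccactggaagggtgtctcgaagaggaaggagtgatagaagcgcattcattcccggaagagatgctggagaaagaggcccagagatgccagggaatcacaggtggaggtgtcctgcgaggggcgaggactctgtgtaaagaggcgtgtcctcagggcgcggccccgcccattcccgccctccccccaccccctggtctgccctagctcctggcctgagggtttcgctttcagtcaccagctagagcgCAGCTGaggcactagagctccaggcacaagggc
Zfp984, chr4:147809739-147810038: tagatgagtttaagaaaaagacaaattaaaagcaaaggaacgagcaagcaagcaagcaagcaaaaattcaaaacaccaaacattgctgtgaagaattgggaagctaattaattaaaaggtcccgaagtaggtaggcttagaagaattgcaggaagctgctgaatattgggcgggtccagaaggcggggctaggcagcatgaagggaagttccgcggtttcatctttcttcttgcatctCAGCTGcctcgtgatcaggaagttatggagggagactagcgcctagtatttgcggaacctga
Mad2l2, chr4:148130670-148130969: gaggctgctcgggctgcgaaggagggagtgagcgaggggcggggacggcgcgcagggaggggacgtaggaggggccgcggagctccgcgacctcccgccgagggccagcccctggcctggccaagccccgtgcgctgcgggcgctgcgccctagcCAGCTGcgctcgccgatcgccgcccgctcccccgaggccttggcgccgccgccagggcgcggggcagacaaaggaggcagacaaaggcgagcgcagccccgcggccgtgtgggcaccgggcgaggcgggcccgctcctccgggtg
Fbxo44, chr4:148160045-148160344: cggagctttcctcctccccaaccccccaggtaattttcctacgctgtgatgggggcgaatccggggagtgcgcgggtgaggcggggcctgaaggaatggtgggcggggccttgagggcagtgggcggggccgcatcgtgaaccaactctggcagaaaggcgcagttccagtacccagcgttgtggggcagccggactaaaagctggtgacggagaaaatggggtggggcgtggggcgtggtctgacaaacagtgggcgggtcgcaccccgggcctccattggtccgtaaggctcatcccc
Fbxo6, chr4:148151876-148152175: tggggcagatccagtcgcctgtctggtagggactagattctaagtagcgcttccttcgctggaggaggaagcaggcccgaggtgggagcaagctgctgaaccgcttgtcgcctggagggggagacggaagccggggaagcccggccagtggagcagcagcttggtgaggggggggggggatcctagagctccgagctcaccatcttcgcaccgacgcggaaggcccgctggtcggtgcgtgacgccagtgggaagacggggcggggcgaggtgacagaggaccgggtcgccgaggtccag

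All 7 members were matched in the RefSeq promoter table by symbol. The site began 29 bases before the start in Arhgef10l, 12 before it in Zfp984, 95 before it in Mad2l2 and 17 after it in Tnfrsf1b. None was found in any listed promoter of Fbxo44, Fbxo6, Efhd2, Tinagl1 or Pax7. Over 32851 RefSeq promoters, 16.3% hold CAGCTG, and of the first promoters of 9681 tested genes 14.8% do. The wider E-box CANNTG, which includes CAGCTG, was in the first promoter of 5 of the 7 members, against 62.1% of those 9681, and GGGCGG, the GC box searched on both strands, in 5 of 7 against 66.4%. Base composition differed widely, with 44.7% G and C and 9 CpG in the Zfp984 window, against 79% and 41 CpG in that of Mad2l2. A match is a description of the letters and says nothing of binding.

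The adjusted p of the members (limma) ran from 0.0133 for Arhgef10l and Tnfrsf1b to 0.0255 for Mad2l2. Col16a1 (0.0133) and Rps15a-ps4 (0.00807) also passed the threshold within 10 Mb but are not among the 7. The threshold and the distance alone therefore did not define the members. Just outside the threshold were Pdpn, for the membrane glycoprotein podoplanin, at 0.0523, and Pik3cd, for a catalytic subunit of phosphoinositide 3-kinase, at 0.0620. Both were lower, with Pdpn at 35.7, 41.1 and 45.9 RPKM in Psat1 cKO against 54.5, 60.3 and 53.6 RPKM in Ctrl. On the side of distance, Tinagl1 lies 9.56 Mb from Pax7, within the limit of 10 Mb. In the authors' deposited table, which listed 115 of 21525 genes (0.534%) at q under 0.05, 0.376% higher and 0.158% lower, 4 of the 7 were below that q. The authors' deposited table gave q = 0.0626 for Tinagl1, q = 0.0518 for Zfp984 and q = 0.162 for Fbxo44.

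Within 10 Mb of Pax7, 4 of 200 tested genes (2%) were called in the upward direction and 6 (3%) in the downward, against 1.8% and 0.49% of all genes tested. The interval held 1.63% of all genes tested, 10% of all genes called lower and 1.82% of those called higher. The 129 genes tested before Pax7 had 3 higher and 0 lower calls, while the 70 genes after it had 1 higher and 5 lower. On the rest of chromosome 4, 2 of 562 genes were higher and 1 lower. Since the members are among these calls, nothing further is read from the counts. Within 10 Mb of Psat1 on chromosome 19, where both groups carry the same floxed alleles by label, 0 of 141 genes were higher and 1 was lower, Psat1 itself. Within 10 Mb of Hddc3 on chromosome 7, itself called lower, 4 of 80 were higher and 3 lower.

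**Figure D2:**
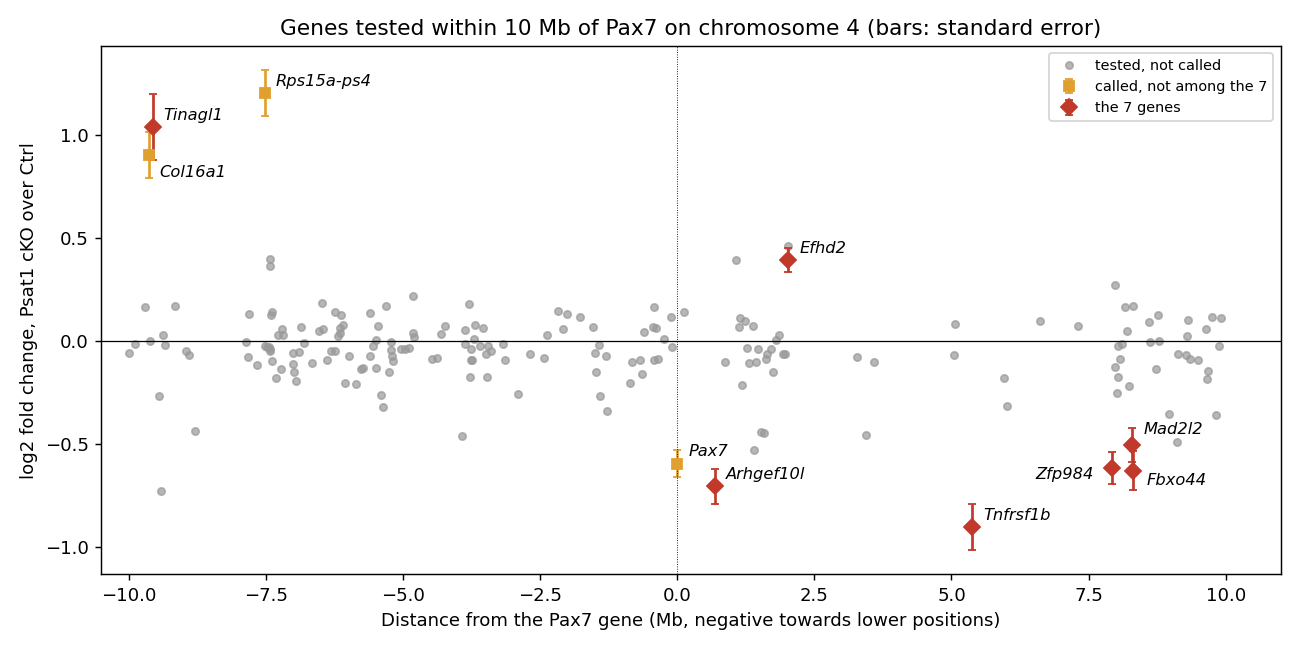
Log2 fold change (Psat1 cKO over Ctrl) of the 200 genes tested within 10 Mb of Pax7, by distance from the Pax7 gene in Mb. Red diamonds are the 7 genes and orange squares the other called genes, with standard errors, and grey points were not called; 5 of the 7 lie after Pax7 with values between -0.90 and -0.51.

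Genes after Pax7 that were not called also had more values on the lower side. Without the members, 16 of 64 genes after Pax7 (25%) had every Psat1 cKO library below every Ctrl library, and 1 (1.56%) the reverse, while over all genes tested the shares were 10.5% and 10.0%. Before Pax7 and without Tinagl1 they were 13.3% and 5.47% of 128 genes. The median log2 fold change of those 64 genes was -0.06, against -0.01 for all genes tested. With the libraries scaled by median ratios, which moves the shares of all genes to 8.92% lower and 11.3% higher, 20 of all 70 genes after Pax7 were lower and 3 higher without overlap. Unscaled, the same 70 genes had 21 lower and 2 higher. These 70 include the 6 members after Pax7, and the scaled count without them was not made. These counts come from the same comparison that chose the members and carry no test.

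**Figure D3:**
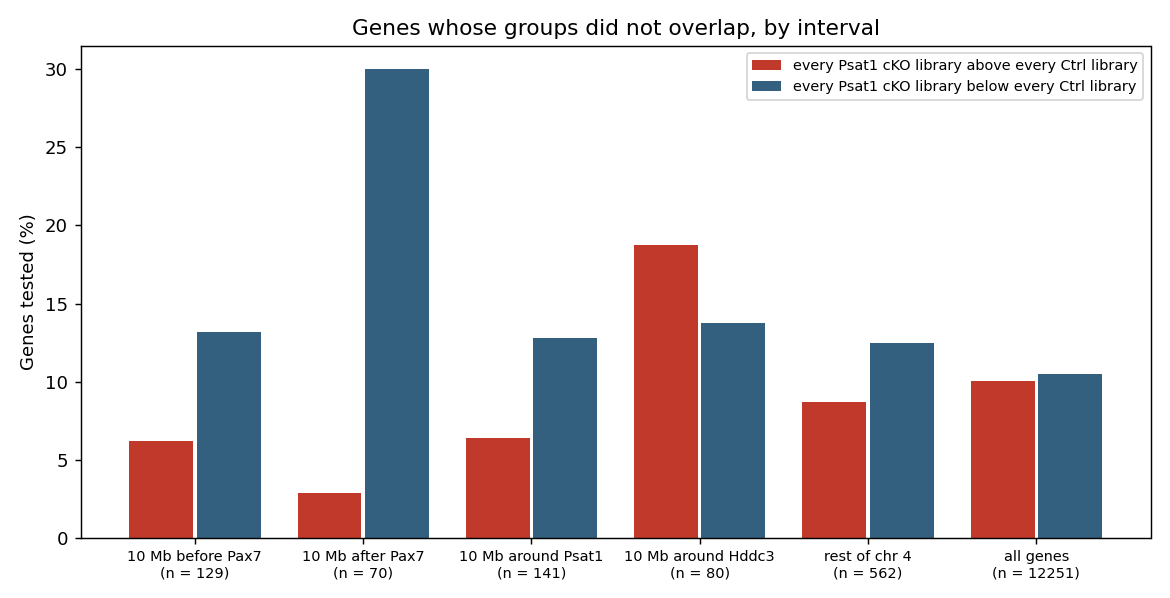
Share of tested genes, in percent, whose 3 Psat1 cKO libraries all lay above (red) or all below (blue) the 3 Ctrl libraries, by interval, with the number of genes tested. The 10 Mb after Pax7, members included, had 30% below and 2.86% above, and all genes tested had 10.5% below and 10.0% above.

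The nearest tested gene on each side of every member gave 13 neighbours, of which limma called 0, against 2.29% of all genes tested. After Pax7 every called gene is a member, so that a neighbour there could not be called, and nothing is read from this count. An unadjusted p under 0.05 (limma) was found for 3 of the 13, against 1762 of all 12251 genes tested. Beside Tinagl1, Pef1, for a calcium-binding protein, had a log2 fold change of 0.00, with 19.3, 18.7 and 18.5 RPKM in Psat1 cKO against 18.6, 18.3 and 19.6 RPKM in Ctrl, and Serinc2 was at -0.27. Col16a1, for a fibril-associated collagen chain, lies 9.64 Mb before Pax7, on the far side of Pef1 from Tinagl1, and was called higher, at 2.79, 3.06 and 3.01 RPKM in Psat1 cKO against 1.58, 1.09 and 1.41 RPKM in Ctrl. Its call was lost without Psat1 cKO 2 (limma, adjusted p up to 0.0953 over all alternatives). Rps15a-ps4, 7.52 Mb before Pax7, was called higher, at 27.4, 24.9 and 27.1 RPKM in Psat1 cKO against 12.7, 9.21 and 11.96 RPKM in Ctrl, but 32.2% of its 50-base stretches also occur in Rps15a, for a ribosomal protein, and its value is uncertain. Around Arhgef10l, Klhdc7a was at 0.14 and Rcc2, for a regulator of chromosome condensation family protein, at -0.10. Around Tnfrsf1b, the retinal reductase gene Dhrs3 was at 0.08 and Znf41-ps at -0.18, and beside Efhd2, the zinc finger methyltransferase gene Prdm2 was at -0.08.

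**Figure D4:**
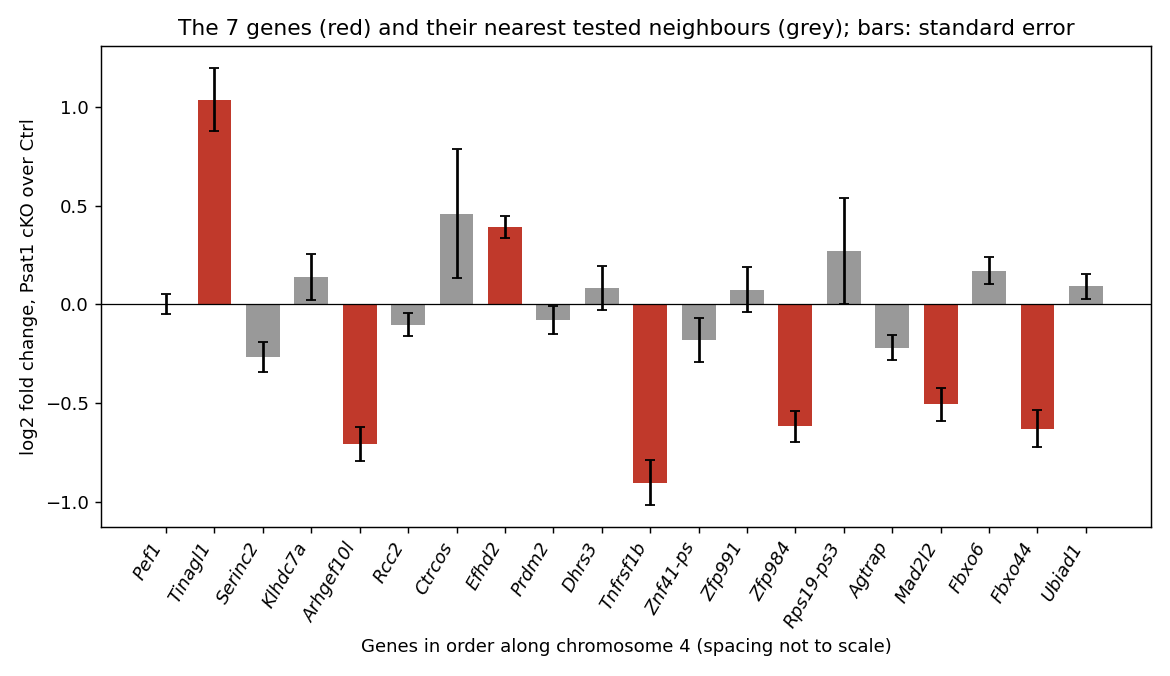
Log2 fold change (Psat1 cKO over Ctrl) with standard error of the 7 genes (red) and of the nearest tested gene on each side (grey), in chromosome order. The grey bars lie between -0.27 and 0.46, and the tallest of them, Ctrcos, has a standard error of 0.33.

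The stretch from Mad2l2 to Fbxo2 is the most compact example. In 36.3 kb it holds Mad2l2 and 3 F-box genes, Fbxo6, Fbxo44 and Fbxo2, of a family that includes lectins recognising glycoproteins. Mad2l2 and Fbxo6 are 11 bases apart, and Fbxo6 and Fbxo44 are 663 bases apart. Fbxo6 lies between the lower pair and had the other direction: 10.5, 9.91 and 9.80 RPKM in Psat1 cKO, against 9.02, 8.17 and 9.54 RPKM in Ctrl, with a log2 fold change of 0.17, not called. Its groups did not overlap either. Fbxo2 was below the filter, at 0.275, 0.196 and 0.249 RPKM in Psat1 cKO and 0.312, 0.226 and 0.337 RPKM in Ctrl, with overlapping groups. Agtrap, on the other side of Mad2l2 and for a protein bound to the angiotensin receptor, was at -0.22 and not called.

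Zinc finger genes within 1 Mb of Zfp984 had values in both directions. Zfp933 read 2.97, 2.81 and 3.25 RPKM in Psat1 cKO against 3.18, 3.46 and 3.35 RPKM in Ctrl, and Zfp991 had 2.003, 1.64 and 2.34 RPKM in Psat1 cKO against 1.78, 1.83 and 1.97 RPKM in Ctrl, neither called. Below the filter, Zfp985 was the reverse of Zfp984, at 0.361, 0.300 and 0.283 RPKM in Psat1 cKO against 0.0147, 0.134 and 0.0780 RPKM in Ctrl. The first Ctrl value is under 0.0893 RPKM, which 3 reads per kilobase give at that depth. Zfp982 had the direction of Zfp984, with no overlap, at 0.323, 0.371 and 0.297 RPKM in Psat1 cKO and 0.580, 0.388 and 0.520 RPKM in Ctrl, and neither Zfp985 nor Zfp982 was tested. Rex2, Zfp979 and Zfp534 were at no more than 0.190 RPKM in any library. Sequence shared with other genes was counted for Zfp984 only, so the values of these other zinc finger genes may be uncertain in the same way.

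The partners of these genes elsewhere in the genome mostly did not pass the test. The lists were chosen with earlier results known, and each count stands beside the 1.8% higher and 0.49% lower of all genes tested. In TNF receptor signalling, 0 of 18 tested genes rose and 1 fell, which is Tnfrsf1b itself, and the median log2 fold change was 0.05, against -0.01 for all genes. Next smallest in p there was Ripk1, the kinase of the receptor complex, with 8.95, 8.64 and 8.98 RPKM in Psat1 cKO against 7.88, 7.70 and 7.98 RPKM in Ctrl (limma, adjusted p = 0.185). Of 11 tested members of the TNF receptor superfamily only Tnfrsf1b was called. The nerve growth factor receptor gene Ngfr had a log2 fold change of 0.28 (limma, adjusted p = 0.224).

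Of 15 translesion synthesis and shieldin genes, 0 rose and 2 fell, with a median of -0.02. Beside Mad2l2 the other was Pold3, for a subunit that polymerases delta and zeta share. Pold3 read 9.61, 10.8 and 10.2 RPKM in Psat1 cKO, against 13.2, 12.8 and 13.1 RPKM in Ctrl, a log2 fold change of -0.34 (SE 0.06; limma, adjusted p = 0.0270). Every Psat1 cKO library was below every Ctrl library, but in every fit without 1 library the call was lost, with adjusted p up to 0.104 without Ctrl 2. In the spindle checkpoint list limma called 0 of 8 genes, with 0 at an unadjusted p under 0.05 and a median of -0.02.

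Of 10 EF-hand and actin regulators 1 rose, Efhd2, and 0 fell, with a median of 0.12. Pls3, for the actin bundler plastin 3, was at 0.24 (limma, adjusted p = 0.178).

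Among Tinagl1 and its 13 tested matrix and receptor partners, 4 rose and 0 fell, with a median of 0.24. Beside Tinagl1 these were Nid1, for the basement membrane protein nidogen-1, and the fibronectin receptor genes Itga5 and Itgb1. Nid1 read 55.9, 94.3 and 58.9 RPKM in Psat1 cKO, against 28.9, 21.3 and 21.9 RPKM in Ctrl, a log2 fold change of 1.49 (limma, adjusted p = 0.0138, and 0.0593 without Ctrl 2). Itga5 was at 0.80 and Itgb1 at 0.34 (limma, adjusted p = 0.0329 and 0.0327); the Itga5 call was lost without Psat1 cKO 1 and without any of the Ctrl libraries, and that of Itgb1 whichever library was left out. Both were also lost with Xist and Y-linked expression as a covariate (limma, adjusted p = 0.0649 and 0.0803) and without the variance trend (0.0573 and 0.0553). The summed stromal markers were higher in the same libraries, and their part was not tested. Of 6 tested genes of the F-box lectin list only Fbxo44 was called, with a median of -0.03. Among 9 co-repressors of KRAB zinc finger proteins limma called 0, with 0 at an unadjusted p under 0.05, and Trim28 was at -0.11 (adjusted p = 0.441).

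Genes outside the interval with the most similar profiles over the 6 libraries were named by Pearson's r of log2(RPKM + 0.5). For Tinagl1 the nearest was Twist2, a mesenchymal transcription factor gene on chromosome 1 (r = 0.997), which was also called higher, with a log2 fold change of 1.00. For Efhd2 they were Metrnl and Gask1b (r = 0.996 each), called higher at 0.97 and 0.77. Zfp984 was closest to Gcnt4 (r = 0.996), called lower at -0.49, and Fbxo44 to Tsc22d1 (r = 0.995) and Hddc3 (r = 0.994). Those closest to Mad2l2 (Chtf18, r = 0.999), Arhgef10l (Endog, r = 0.997) and Tnfrsf1b (Gtf3c5, r = 0.993) had log2 fold changes between -0.19 and -0.09 and were not called. With 6 libraries in 2 groups, such values mostly restate the difference between the groups and are given with no test.

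Libraries also differed in sex-linked expression: Xist was expressed in Psat1 cKO 1, Psat1 cKO 2 and Ctrl 1, and Ddx3y in Psat1 cKO 3, Ctrl 2 and Ctrl 3. As the groups of the 7 genes did not overlap, their direction on both sides of this split was fixed in advance, and nothing is read from it. With the split as a covariate, 6 of the 7 kept their call and Mad2l2 did not (limma, log2 fold change -0.50, adjusted p = 0.0589). Psat1 and Pold3 also lost theirs (limma, adjusted p = 0.0532 and 0.0624). Leaving out any 1 library left the calls of Tnfrsf1b and Pax7 standing. Without 1 library the call was lost for Arhgef10l (without Psat1 cKO 2), for Zfp984 (without Psat1 cKO 2 or Ctrl 2), for Efhd2 (without Psat1 cKO 2, Psat1 cKO 3 or Ctrl 2), for Tinagl1 (the same and without Ctrl 3), for Mad2l2 (all except without Ctrl 1 or Ctrl 3) and for Fbxo44 (all except without Psat1 cKO 1).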

How the data were processed

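The authors deposited RPKM values for 25220 genes in 6 libraries, and a comparison of the groups with means of log2 of RPKM + 0.001, a ratio, a signed fold-change score, p-values and q-values, per the file headers. Per the submitters' processing notes, Trim Galore 0.6.6, TopHat2 2.1.1, Partek and mm10 were used, with no role or order; the sources used here name no counting method, strand setting or annotation. In 865 genes a value lay above 0 and under 0.0001 RPKM, less than 1 read gives, so values need not come from whole reads, and no count test was run. Depth was estimated from steps between low RPKM values of single-exon genes (GENCODE M21), where 32.5% to 37.5% of values were near whole reads, against medians of 2.53% to 2.84% at other depths. Floors cover counting error only.

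The fit used limma 3.58.1 (R 4.3.3; variance trend, no block) for genes averaging 0.5 RPKM or more, on log2 of RPKM + 0.5, with Benjamini-Hochberg adjustment over all 12251 genes and a threshold of 0.05; the procedure was tested on simulated data. Positions came from RefSeq on GRCm38.p6, the assembly of mm10, for 25115 genes by symbol or synonym; strands came from GENCODE M21 on the same assembly, and shared 50-base stretches were counted in its transcripts. The members and lists were chosen with earlier results of these data known. Named genes were the members, called genes in the interval, nearest tested neighbours, genes just outside the thresholds, zinc finger genes within 1 Mb of Zfp984, list members called or among the 2 smallest in p, and the 2 most similar profiles per member, of which some are left out for space; Psat1, Myod1 and others in the opening serve as checks. Some items are not reported here. No pair of libraries shared more than 0.00397% of values. Alternatives were pseudocounts, filters, scalings, a replicate block, no trend, array weights, the Xist and Y-linked split and each library left out. Other software was pandas 2.3.3, matplotlib 3.10.9 and numpy 2.4.6 under Python 3.11.15.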

Additional observations from a re-analysis of the deposited data

How the results depend on the processing

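No direction reversed under any alternative among the genes for which they were computed, which are the 7 members, Pax7, Psat1, Col16a1, Rps15a-ps4, Pold3, Nid1, Itga5 and Itgb1; for other named genes they were not computed. Without a filter on low values, which tests more genes, 1 gene was higher and 3 lower over all genes, and 0 and 0 within 10 Mb of Pax7, so that all 7 members lost their call, with adjusted p between 0.0744 for Fbxo44 and 0.131 for Tinagl1. Over the 6 fits without 1 library, between 49 and 173 genes were higher and between 12 and 55 lower over all genes, and between 1 and 4 higher and 2 and 6 lower near Pax7, lowest without Psat1 cKO 2 (49 and 12, and 1 and 2), then without Ctrl 2 (54 and 12, and 2 and 3), with fewer samples in these fits. With the replicate number as a block 121 genes were lower over all genes, and 4 higher and 9 lower near Pax7, and the calls of Pold3, Itga5 and Itgb1 were lost (limma, adjusted p = 0.0545, 0.0605 and 0.0627). The numbers were not taken to pair the libraries, since deviations from the group means correlated at 0.20, -0.03 and 0.17 for numbers 1, 2 and 3. The remaining settings, namely the split covariate, array weights, a fit with no trend, both scalings, a filter at 2 RPKM and pseudocounts of 1 or 0.1, moved no count by more than 1.5 times. Fbxo44 could not be tested at 2 RPKM. The median log2 fold change of genes after Pax7 ran from -0.10 to -0.01 over the alternatives, and that of all genes from -0.02 to 0.00. Genes at the level of Fbxo44 rest on the fewest reads, so that counting error weighs most there.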
